A study of Homo sapiens with 50 samples.

Results

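PARP1 and the PARP family are the enzymes that transfer ADP-ribose from NAD+ onto proteins and nucleic acids. The members described here were 10 genes, PARP1, PARP2, PARP3, PARP4, PARP6, PARP8, PARP10, PARP16, TNKS and TNKS2, taken by their gene name on the array and followed probe by probe. They were read by 15 of the 34127 probes that were not array controls, and by 10 of the 25940 gene names those probes carried. The array is a glass slide of short DNA probes, and the brightness of a probe after hybridisation with labelled RNA is its measure of that RNA.

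PARP1 binds broken DNA strands and builds chains of ADP-ribose on itself and on chromatin, which gather repair proteins such as XRCC1 at the break. PARP2 and PARP3 also act at DNA breaks, the tankyrases TNKS and TNKS2 modify partners at telomeres and in Wnt signalling, and PARP6, PARP8, PARP10 and PARP16 are enzymes that attach single ADP-ribose units. Ionizing radiation breaks DNA, so this family stands at the first step of the response in a cell that is hit.

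H1299 is an established line of human non-small cell lung cancer cells. It was studied with its normal RAD9 level (H1299) and after stable depletion of RAD9, a checkpoint protein of the 9-1-1 clamp, by a short hairpin RNA delivered in the pSUPER.retro.puro viral vector (H1299shRAD9). Dishes received a sham treatment or 1 Gy of 4He ions (alpha particles), and RNA was taken 4 h later from 5 biological replicates in each of 10 groups, 50 samples in all. Cells that were hit and cells that were not hit shared a dish of concentric rings, so that medium passed between them.

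In each line the groups were the sham-irradiated controls (CTL), the directly irradiated cells from dishes whose bystanders were scored positive (DBP), those positive bystanders (BP), the directly irradiated cells from dishes whose bystanders were scored negative (DBN) and those negative bystanders (BN). Positive and negative were set from the micronucleus response of the bystander cells in the same experiments, so the dishes of DBP and BP were separated from those of DBN and BN by an outcome and not by a treatment. All 25 H1299shRAD9 samples carried the hairpin vector, the controls included, and which of the 2 stable transfectants gave a sample was not recorded in the sources used here. The bystander groups and the hit cells of a dish were collected as bulk RNA, in which fewer cells with a transcript and less transcript per cell cannot be told apart.

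The paper showed the depletion of RAD9 at the protein level, by Western blot of both transfectants, which an array does not measure. At the RNA level the depletion was not called on this array. The RAD9A probe read 3.45 ± 0.13 (SD, n = 5) in the H1299 controls and 3.14 ± 0.18 in the H1299shRAD9 controls, a difference of -0.30 that was not called (adjusted p = 0.0855). The difference was -0.31 in DBP, -0.10 in BP, 0.06 in DBN and -0.08 for BN (adjusted p from 0.315 to 0.916), so the samples are named below as labelled. KRT18, KRT8 and VIM, markers of this epithelial-derived line that also carries vimentin, were well above background on all 50 arrays, KRT19 was too but at -1.21 to 0.05, and EPCAM was above background on 5. Of 7 markers of blood, endothelial and fibroblast cells, PTPRC, CD14 and CDH5 were above background on all 50 arrays, DCN on 44, CD3E on 38, COL1A1 on 8 and PECAM1 on 2. The linear levels of these 7 summed to 2.85 to 5.22 times the median probe on the H1299 arrays and 3.56 to 6.13 on the H1299shRAD9 arrays, and the part of these markers in the line differences was not tested. Between 55.2% and 83.3% of the probes of an array stood well above background, and the number of arrays, 5 a group, set the precision.

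Every level below is a log2 intensity relative to the median probe of the same array, so that 0 is the brightness of the median probe and a difference of 1 is a 2-fold change. Groups were compared within a probe, and the 5′ minus 3′ values below were likewise compared only between groups, so no probe's brightness was read against another's as an amount of RNA. A probe was tested on all 12172 features that were bright enough (not well above background on fewer than 25% of the arrays) and varied enough (1.3-fold from its median on at least 20% of the arrays). It was called differentially expressed at p under 0.006 against the controls of its own line, or under 0.005 between lines, with a false discovery rate under 10%. Between lines, the groups compared shared no slide except in BP, so line and slide cannot be told apart. Of the 15 probes, 13 passed the first criterion and 9, of 7 genes, passed both. The 4 that passed only the first, the 3′ probe of PARP1, the 3′ probe of PARP6, PARP2 and PARP8, were tested in a second fit over 20079 features. PARP3 and one PARP1 probe passed neither.

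PARP1 lies on the reverse strand of chromosome 1 and had 3 probes. The sequences of the 5′ and the 3′ probe are shown because the 2 ends of the transcript gave different results, and that of the PARP4 5′ probe because it was the member most like the PARP1 5′ probe across arrays. They are given 5′ to 3′ along the transcript with hg19 coordinates as the array files hold them, and the capitals mark an in-frame stop codon that closes the PARP1 3′ probe.
PARP1 5′ probe, chr1:226589945-226590004: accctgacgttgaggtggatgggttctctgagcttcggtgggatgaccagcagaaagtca
PARP1 3′ probe, chr1:226549161-226549220: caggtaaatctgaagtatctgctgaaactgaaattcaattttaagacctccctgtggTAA
PARP4 5′ probe, chr13:25044053-25044112: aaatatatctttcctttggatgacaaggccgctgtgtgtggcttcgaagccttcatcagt
The 2 PARP1 sequences lie 40784 bases apart in the genome. The 5′ probe is 55% G and C and the 3′ probe 36.7%, and both were well above background on all 50 arrays. The middle probe, at chr1:226589684-226589743 and named for an Ensembl transcript, was well above background on only 2 arrays, DBN replicates 1 and 3 of H1299shRAD9, at -1.71 and -0.97. On the other 48 arrays it read -5.49 to -3.47.

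The question of the first comparison was whether PARP1 RNA differed from the sham controls after irradiation in RAD9-depleted cells, in hit and in bystander cells. At the 5′ probe PARP1 was higher in all 4 groups of irradiated dishes than in the H1299shRAD9 controls. In the controls the 5 replicates read 3.84, 3.29, 4.13, 3.83 and 4.17. In DBP they read 4.31, 4.47, 4.91, 4.65 and 4.67, all above the highest control, as 0.838% of all features were. In BP they read 5.19, 3.93, 4.49, 4.50 and 5.04, with 1 replicate inside the range of the controls. In DBN they read 4.69, 4.37, 4.99, 5.12 and 4.54, again with no overlap with the controls, which held for 1.59% of features. In BN they read 4.11, 4.76, 5.04, 5.03 and 4.67, and replicate 1 fell within the control range. Each irradiated replicate was above the control of the same number, in 5 of 5 pairs in all 4 comparisons. Gains in single pairs were 0.27 to 1.47. The 4 comparisons, here and for the other probes, used the same 5 control arrays, so their agreement is not independent. Of all features, 7.98% in DBP, 8.37% for BP, 8.21% for DBN and 8.63% for BN were higher in every pair.

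**Figure D1:**
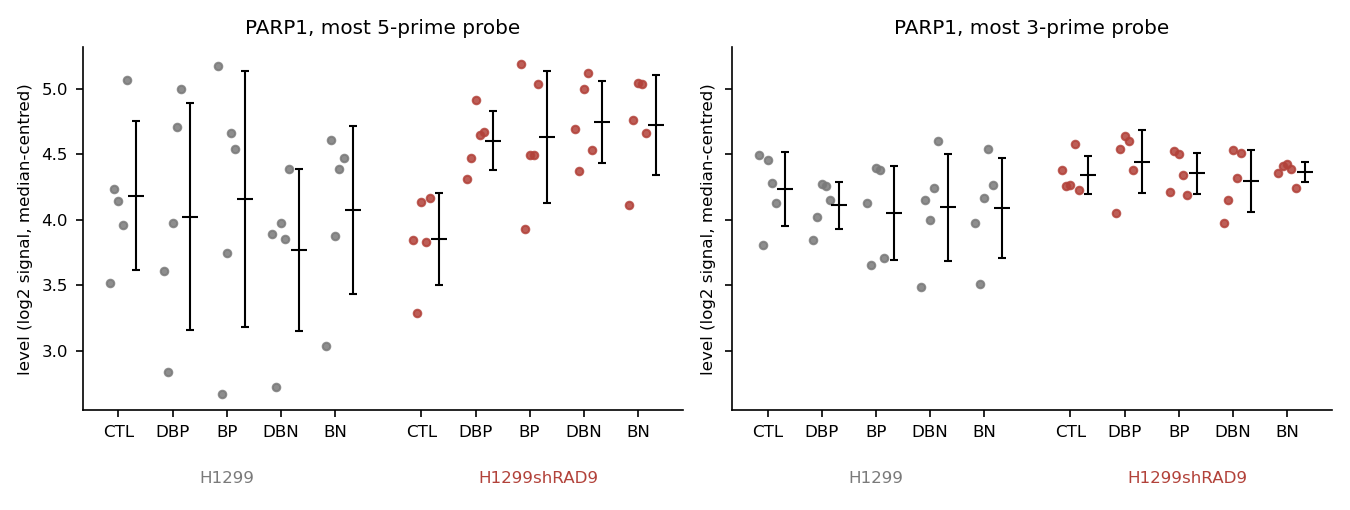
Level of PARP1 (log2 intensity relative to the median probe of the array, y axis) at the 5′ and the 3′ probe in the 10 groups, with 1 point per array and bars for the mean ± SD (n = 5). At the 5′ probe the 4 H1299shRAD9 groups from irradiated dishes averaged 4.60 to 4.74 against 3.85 in their controls, while at the 3′ probe the group means stayed within 4.05 to 4.44.

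At this 5′ probe PARP1 was called in 3 of the 4 comparisons with the H1299shRAD9 controls. The difference was 0.75 (SE 0.12, 95% interval 0.46 to 1.04, adjusted p = 0.0669, 1.68-fold) in DBP, where 1 of the 9 member probes tested was called and 2.17% of all features were. In BP it was 0.78 (SE 0.14, 0.45 to 1.11, adjusted p = 0.0547, 1.71-fold), 1 of 9 member probes against 1.89% of all features. In DBN it was 0.89 (SE 0.14, 0.56 to 1.22, adjusted p = 0.047, 1.85-fold), 1 of 9 against 4.5%. The BN difference was of like size, 0.87 (SE 0.18, 0.44 to 1.29), but missed the false discovery limit (adjusted p = 0.174). Over 12 other settings, leave-outs aside, it ranged from 0.38 to 0.90, with an adjusted p of up to 0.999. No member was called there, by limma or by the random-variance test, and only 0.0493% of all features were called. An unadjusted p under 0.05 was reached by 3 of the 13 member probes tested and by 14.1% of all features.

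The calls depended on which pairs were in the fit. Leaving out 1 replicate pair at a time kept the difference between 0.63 and 1.02 in DBP, BP and DBN, but the call remained in DBP only without replicate 1 (0.82), in BP only without replicate 3 (0.88) and in DBN only without replicate 5 (1.02). It was lost in DBP without replicate 2, 3, 4 or 5 (0.64, 0.74, 0.73 and 0.81), in BP without replicate 1, 2, 4 or 5 (0.63, 0.81, 0.80 and 0.75) and in DBN without replicate 1, 2, 3 or 4 (0.90, 0.84, 0.90 and 0.79), with adjusted p up to 0.259. Calls over the whole array fell at the same time. Of the 12172 features limma called 264, 230 and 548 with all 5 pairs, but 0, 0, 5 and 7 in DBP without replicates 2 to 5, 0 in BP without replicate 1, 2, 4 or 5, and 125, 0, 0 and 22 in DBN without replicates 1 to 4. Without the pairing by replicate number the same PARP1 differences had an adjusted p of 0.268, 0.607 and 0.114, and 17, 0 and 66 features were called. With the slide of the array as a fixed block the DBP difference was 0.66 (adjusted p = 0.59), and 0 features were called. With the slide as a random block the PARP1 call was kept in DBP, BP and DBN.

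The 3′ probe of the same gene did not follow. Its H1299shRAD9 control replicates read 4.38, 4.26, 4.27, 4.58 and 4.23, and the DBN replicates 3.97, 4.15, 4.53, 4.32 and 4.51, with the ranges overlapping. It differed from the controls by 0.10 in DBP, 0.01 in BP, -0.05 in DBN and 0.02 for BN (adjusted p from 0.722 to 0.982), with intervals that stayed between -0.34 and 0.36. Across the 50 arrays the 2 probes correlated at r = 0.26, and 31.5% of all features correlated more strongly with the 5′ probe.

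The difference between the ends was then tested as such, as the level of the most 5′ feature minus that of the most 3′ feature in each of 3460 genes that had both. This test was added after the probe values had been seen. For PARP1 the 5′ minus 3′ value averaged -0.49 ± 0.39 (SD, n = 5) in the H1299shRAD9 controls and 0.16 ± 0.16 in DBP, 0.28 ± 0.65 in BP, 0.45 ± 0.33 in DBN and 0.36 ± 0.36 for BN. The change was 0.65 (SE 0.11, adjusted p = 0.0657) in DBP and 0.93 (SE 0.21, adjusted p = 0.0634) in DBN, both called, and 0.76 and 0.85 in BP and BN (adjusted p = 0.108 and 0.122). PARP1 was 1 of 152 genes called in DBP (4.39% of those tested, 143 of them higher) and 1 of 255 in DBN (7.37%, 240 higher), against 4.13% of genes called in BP and 0.0289% in BN, and the median gene shifted by 0.08 and 0.09. The DBP call remained only without replicate 1 (0.61) and was lost without replicate 2, 3, 4 or 5 (0.58, 0.71, 0.61 and 0.72), and the DBN call remained only without replicate 5 (1.15) and was lost without replicate 1, 2, 3 or 4 (0.85, 0.87, 1.02 and 0.78). Without the pairing the DBP change had an adjusted p of 0.157. With the 5′ to 3′ index of the array, defined next, as a covariate both calls were lost. The change was then 0.69 in DBP (SE 0.24, adjusted p = 0.884) and 3.19 in DBN (SE 0.53, adjusted p = 0.147). Of the 3460 genes limma then called 0 in either. The index of the H1299shRAD9 controls did not overlap that of the irradiated dishes, so this fit could not tell index and irradiation apart.

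The balance of 5′ and 3′ signal of the whole array moved with the same groups. Taken as the median over the 3460 genes of the 5′ minus the 3′ level, this index was -1.54 to -1.48 on the 5 H1299shRAD9 control arrays and -1.47 to -1.31 on the 20 arrays of irradiated dishes of that line, with no overlap, and -1.75 to -1.20 in H1299. Over the 50 arrays, which share labelling and scanning, the PARP1 5′ probe correlated with the index at r = 0.66, and 1.24% of features had a higher correlation, while the median feature had -0.07. The 3′ probe correlated at 0.06. With the index as a covariate no member was called in DBP, BP or DBN, where limma called 0, 0 and 1 of the 12172 features. The PARP1 5′ differences were then 0.79, 1.11 and 2.01 (adjusted p = 0.98, 0.239 and 0.275), and 0.65 in BN (adjusted p = 0.509). As the index separated control from irradiated arrays of H1299shRAD9 without overlap, this covariate could not tell index and irradiation apart. The part of RNA quality in the PARP1 difference was therefore not tested.

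**Figure D2:**
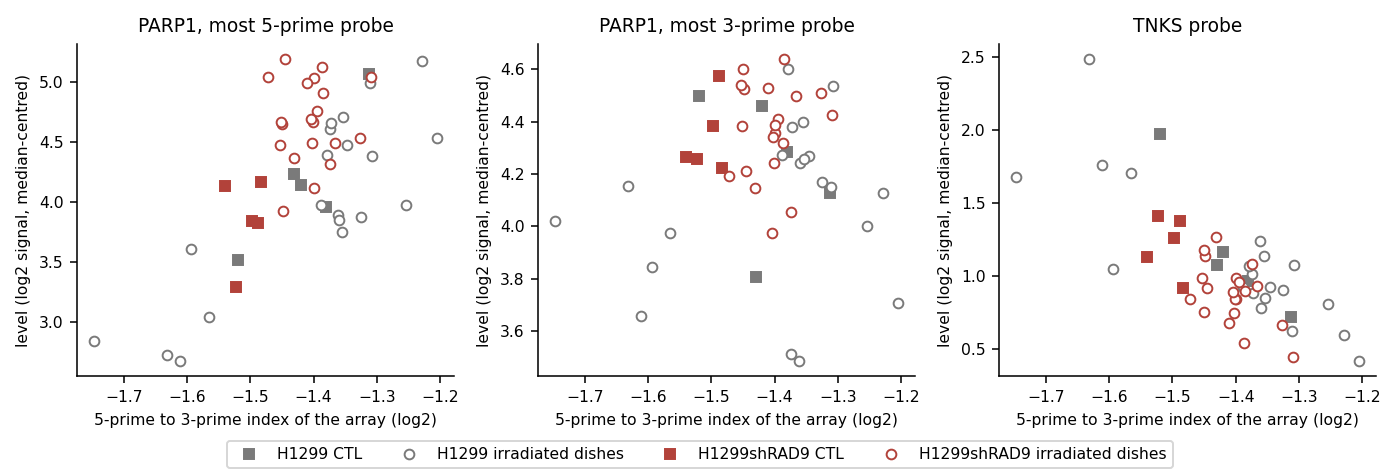
Level of the PARP1 5′ probe, the PARP1 3′ probe and TNKS (log2 relative to the array median, y axis) against the 5′ to 3′ index of the array (x axis, log2), with 1 point per array and symbols for line and treatment. The 5′ probe was higher on arrays of a higher index (r = 0.66), the 3′ probe showed little relation (r = 0.06) and TNKS ran the other way (r = -0.75).

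In H1299 with its normal RAD9 level no PARP1 difference was called. The 5′ probe read 3.52, 4.23, 4.14, 3.96 and 5.07 in the controls and 3.89, 2.73, 3.97, 3.85 and 4.39 in DBN. The ranges overlapped in all 4 comparisons and the replicates spread more widely than in H1299shRAD9, with an SD of 0.57 to 0.97 against 0.22 to 0.50. The differences from the controls were -0.16 in DBP, -0.03 in BP, -0.42 in DBN and -0.11 for BN (adjusted p from 0.862 to 1). Those of BP, DBP and BN changed sign under other settings, for BP under both other scalings, to 0.061 and 0.040.

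Whether the difference from the controls was larger in H1299shRAD9 was tested by the interaction of line and irradiation. For PARP1 5′ it was 0.91 (SE 0.32) in DBP, 0.80 (SE 0.48) in BP, 1.31 (SE 0.33, 95% interval 0.60 to 2.01) in DBN and 0.98 (SE 0.27) for BN. The adjusted p was 0.583, 0.721, 0.259 and 0.663, so none was called, and limma called 0% of all features in these 4 tests, where 1, 2, 2 and 3 of the 13 member probes had an unadjusted p under 0.05. Over all features that share was 8.41%, 7.19%, 8.7% and 6.89%. A larger PARP1 difference in the depleted line was therefore not shown over all features.

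In all, the group means of the PARP1 5′ probe ran in the order H1299 DBN 3.77, H1299shRAD9 CTL 3.85, H1299 DBP 4.02, BN 4.08, BP 4.16 and CTL 4.18, then H1299shRAD9 DBP 4.60, BP 4.63, BN 4.72 and DBN 4.74. Each of the 9 pairs of neighbours in this order overlapped in its replicates, and the widest gap, 0.42, lay between the H1299 controls and H1299shRAD9 DBP. The 10 group means of the 3′ probe were no more than 0.13 from their neighbours, but their order followed the line. Every H1299 mean, from 4.05 in BP to 4.23 in CTL, was below every H1299shRAD9 mean, of which DBP was the highest at 4.44. Each of the 9 pairs of neighbours overlapped in its replicates here too. Between lines the 5′ probe was lower by 0.33 in the depleted controls (adjusted p = 0.345, not called) and higher by 0.98 in DBN (SE 0.29, adjusted p = 0.0858), which was called as 1 of 9 member probes against 5.78% of all features. The DBN call was lost without replicate 1, 3 or 4 (1.02, 0.96 and 0.90) and kept without replicate 2 or 5 (0.81 and 1.18). It was also lost with the array scaled to its 75th percentile (0.80), by quantile normalization (0.79), in the values the authors deposited (0.82), under the filter on dim probes and when the 10 groups shared one fit (0.98 in both). Its differences in DBP, BP and BN were 0.58, 0.47 and 0.65 (adjusted p from 0.138 to 0.474).

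The features most like the PARP1 5′ probe over the 50 arrays, each the brightest of its gene, were those of CDK11B (r = 0.94), CLSPN (0.93), CEP128 (0.92), DDX55 (0.92) and CHD9 (0.92), of 9171 genes. The arrays share line, dish and labelling batches, and these values are a description. Among the family, the 5′ probe of PARP4 was nearest at r = 0.79, a value that 1.54% of all features exceeded. TNKS was farthest at r = -0.81, lower than any other of the 12172 features, while the median feature stood at 0.05.

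PARP2, the closest relative of PARP1 and its partner at strand breaks, varied little. Its probe read from 4.44 to 5.64 over the 50 arrays, with H1299shRAD9 controls at 5.17, 5.13, 5.35, 5.40 and 5.22 and DBN at 5.00, 5.16, 5.16, 5.17 and 5.03. The differences from the controls were -0.10, -0.05, -0.15 and -0.14 in DBP, BP, DBN and BN of that line (adjusted p from 0.473 to 0.918), and between lines at most 0.22. PARP3, which also acts at double-strand breaks, was dim. On the H1299 arrays 24 of 25 showed it well above background, but of the 25 H1299shRAD9 arrays 10 did, and so failed the brightness criterion. The H1299 controls read -1.57, -1.39, -1.14, -1.30 and -1.57, and the depleted controls -1.59, -1.71, -2.92, -2.57 and -2.41, with replicates 1 and 2 the highest of the depleted ones. When probes seen in 4 of 5 arrays of either group were kept instead, PARP3 entered only through the H1299 controls, with 5 of 5 arrays. Only 2 of the 5 depleted control arrays measured it above background. It was called lower there, where 17.1% of features were called. That fit set PARP3 against readings mostly at background, so no size is given and the call does not test its level. In DBP, BP, DBN and BN of the depleted line 1, 2, 2 and 3 of 5 arrays measured it, and no difference is given there.

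The tankyrases are poly(ADP-ribose) polymerases that bind telomere and Wnt pathway partners such as TRF1 and axin. TNKS ran opposite to the PARP1 5′ probe in H1299shRAD9. The controls read 1.26, 1.41, 1.13, 1.37 and 0.92. DBN read 0.89, 1.26, 0.68, 0.54 and 0.66, and BN 0.98, 0.95, 0.44, 0.84 and 0.84. Each of these 10 values was below the control of the same number, although the ranges overlapped. The difference from the controls was -0.24 (SE 0.09) in DBP, -0.31 (SE 0.11) in BP, -0.41 (SE 0.12) in DBN and -0.41 (SE 0.11) for BN, negative in 5 of 5 pairs each time, as were 8.26%, 4.72%, 8.17% and 6.66% of all features. None was called (adjusted p = 0.248, 0.292, 0.144 and 0.215). When all 10 groups shared one estimate of the spread, TNKS and the PARP1 5′ probe were both called in DBN and in BN, as were 862 and 519 of the 12172 features, against 548 and 6 in the fits of the groups compared alone. TNKS correlated with the 5′ to 3′ index at -0.75, and 0.83% of features had a lower value. TNKS2 in the same line differed from the controls by -0.12, -0.14, -0.07 and -0.14 (adjusted p from 0.538 to 0.855), and in H1299 DBP by -0.69 (SE 0.28, adjusted p = 0.714), where replicates 1 and 2, at 0.04 and -0.39, lay far below the other three at 1.18 to 1.40.

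**Figure D3:**
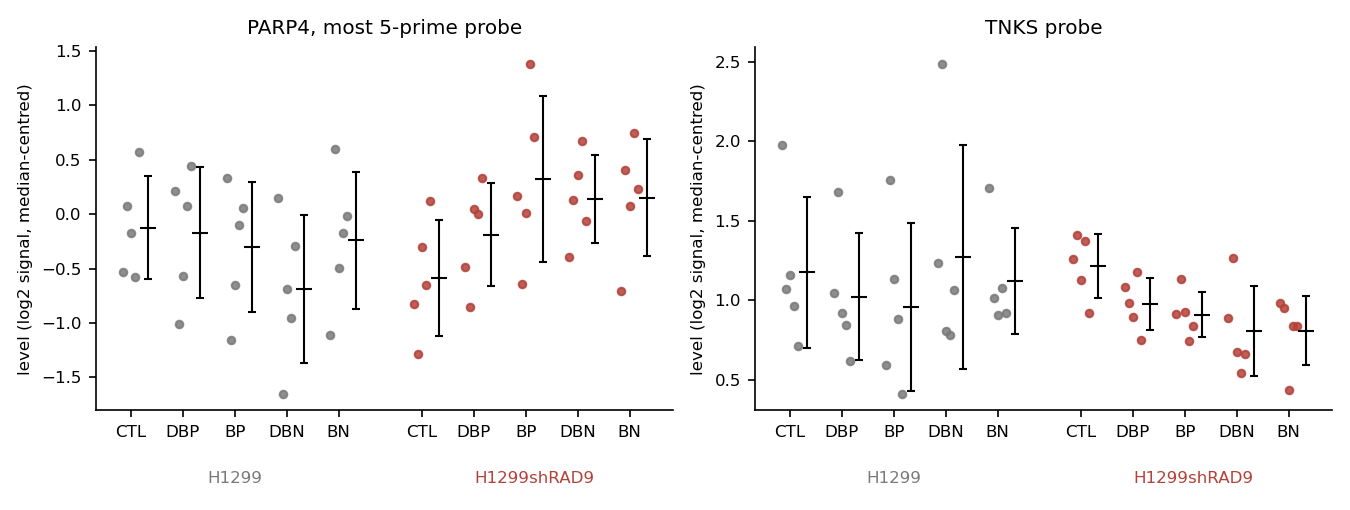
Levels of the PARP4 5′ probe and TNKS (log2 relative to the array median, y axis) in the 10 groups, 1 point per array, bars for the mean ± SD (n = 5). In the 4 H1299shRAD9 groups from irradiated dishes the PARP4 5′ differences from the controls were 0.40 to 0.91 and those of TNKS -0.41 to -0.24, and none of them was called.

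PARP4 is the PARP of the vault particle, a large ribonucleoprotein of the cytoplasm. Its probes, 48890 bases apart on the reverse strand of chromosome 13, differed mainly at the 5′ end, as those of PARP1 did, but without a call against the controls. The 5′ probe read -0.82, -1.28, -0.30, -0.65 and 0.12 in the H1299shRAD9 controls, and 0.17, -0.64, 0.01, 1.39 and 0.71 in BP, with overlap. The differences from the controls were 0.40 (SE 0.10, adjusted p = 0.116) in DBP, 0.91 (SE 0.22, adjusted p = 0.123) in BP, 0.73 (SE 0.23, adjusted p = 0.159) in DBN and 0.74 (SE 0.26, adjusted p = 0.268) for BN. They were positive in 5 of 5 pairs except in DBN, with 4 of 5. The 3′ probe differed by -0.11 in DBP, -0.05 in BP and 0.05 in DBN, and by less than 0.01 in BN. As a 5′ minus 3′ value PARP4 changed by 0.51, 0.97, 0.67 and 0.74 in the 4 groups, none called (adjusted p from 0.108 to 0.199). Between lines the PARP4 3′ probe was called in BP, where the depleted replicates at 3.23, 3.42, 3.19, 3.31 and 3.28 lay above all H1299 replicates at 2.88, 2.58, 2.92, 2.71 and 2.31, a separation found in 8.86% of features. The difference was 0.61 (SE 0.17, adjusted p = 0.0504), 1 of 9 member probes against 8.67% of all features. The call was lost under 75th percentile scaling (0.42), quantile normalization (0.46), in the authors' deposited values (0.45), with all groups in one fit (0.61, where PARP16 was called in its place), and without any 1 of the 5 replicates (0.67, 0.55, 0.69, 0.61 and 0.52 without replicates 1 to 5). Blocked by replicate number, the same difference had an adjusted p of 0.13 and was lost, and the PARP6 5′ probe was called in its place.

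PARP10, a mono-ADP-ribosyltransferase known as a partner of MYC, differed between the lines rather than with irradiation. As the lines shared no slide except in BP, slide and line cannot be told apart in these differences. At its 3′ probe the H1299 controls read 0.88, 0.89, 1.104, 0.96 and 1.08, and the H1299shRAD9 controls 0.56, 0.30, -0.11, -0.16 and -0.43, with no overlap, as for 6.05% of features in that direction. In all 5 depleted groups replicates 1 and 2 stood above replicates 3 to 5, and PARP3 showed the same split in the depleted controls. The sources used here do not say which of the 2 transfectants gave which replicate, so a difference between transfectants within the depleted line could not be tested, and the line differences are means over all 5. The 3′ probe was lower by 0.95 in the depleted controls (SE 0.18, 95% interval -1.35 to -0.55, adjusted p = 0.00657), 1 of 9 member probes called against 16.5% of all features. It was lower by 1.14 in DBP (SE 0.24, adjusted p = 0.0196), again 1 of 9 and against 7.2%. Both calls remained when any 1 replicate was left out. In DBN it was lower by 0.76, in BP by 0.48 and in BN by 0.72 (adjusted p = 0.167, 0.177 and 0.0545), none called. In BN, where 5 of 13 probes and 31.6% of all features had an unadjusted p under 0.05, limma and the random-variance test called no member and 9.31% of all features were called by limma. The BN difference of PARP10 was however called under 6 alternatives, listed in the closing section.

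The 5′ probe of PARP10, 7731 bases away, went the other way. It read -1.32, -0.86, -1.46, -0.93 and -1.42 in the H1299 controls and -0.72, -1.04, 0.34, -0.52 and 0.15 in the depleted controls, with overlap. Its line difference was 0.84 (SE 0.26, adjusted p = 0.0326, not called because the unadjusted p missed its own limit) in CTL, 0.28 in DBP, 0.14 in BP, 0.14 in DBN and 0.68 for BN (adjusted p from 0.066 to 0.837 in the last 4). The 5′ minus 3′ value of PARP10 was -2.18 ± 0.36 in the H1299 controls and -0.39 ± 0.92 in the depleted controls (SD, n = 5). It was higher in H1299shRAD9 by 1.79 in CTL (SE 0.38, adjusted p = 0.0242, with 9.34% of the 3460 genes called), by 1.42 in DBP (SE 0.27, adjusted p = 0.0567, 0.751%) and by 1.40 in BN (SE 0.26, adjusted p = 0.0469, 1.21%). In BP and DBN it was 0.62 and 0.90 (adjusted p = 0.582 and 0.489, with 0.434% and 0.0289% of genes called). The depleted replicates were split here too. In the depleted controls replicates 1 and 2 read -1.29 and -1.34, and replicates 3 to 5 read 0.44, -0.36 and 0.58. In depleted BP (-2.00 and -1.42) and DBN (-1.79 and -1.45) replicates 1 and 2 lay within the range of the matching H1299 group. With the 5′ to 3′ index as a covariate the DBP and BN calls remained (1.36 and 1.39) and the CTL call was lost (1.70, adjusted p = 0.167). Without replicate 3 the CTL call was lost (1.48). The DBP call remained only without replicate 2 (1.57) and was lost without 1, 3, 4 or 5 (1.36, 1.47, 1.34 and 1.36), and the BN call remained only without replicate 1 (1.60) and was lost without 2, 3, 4 or 5 (1.302, 1.29, 1.27 and 1.53).

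**Figure D4:**
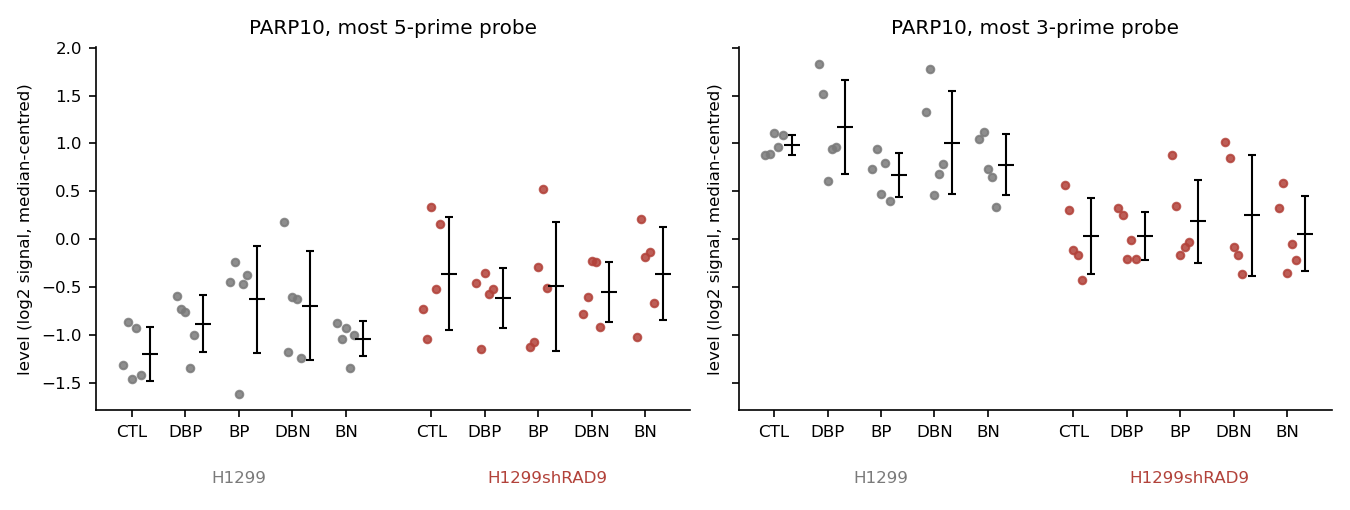
Level of PARP10 (log2 relative to the array median, y axis) at its 5′ and 3′ probes in the 10 groups, 1 point per array, bars for the mean ± SD (n = 5). The 3′ probe was 0.48 to 1.14 lower in H1299shRAD9 than in the matching H1299 groups, and the 5′ probe 0.14 to 0.84 higher.

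Irradiation left both PARP10 probes without a call in either line. In H1299shRAD9 the 3′ probe differed from the controls by less than 0.01 in DBP and by 0.16, 0.22 and 0.03 in BP, DBN and BN, and the 5′ probe by -0.25, -0.14 and -0.19 in DBP, BP and DBN and by less than 0.01 in BN. In H1299 BP the 5′ probe was 0.57 higher (SE 0.21, adjusted p = 0.763).

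PARP16, PARP6 and PARP8, which also attach single ADP-ribose units, were called in no comparison by the rule above. PARP16, an enzyme of the endoplasmic reticulum and its stress response, read 1.94, 2.27, 1.85, 1.95 and 1.82 in the H1299 controls and 2.18, 2.18, 2.42, 2.64 and 2.32 in the depleted controls. Its line difference was positive in all 5 comparisons, 0.39 in CTL, 0.57 in DBP, 0.47 in BP, 0.46 in DBN and 0.44 for BN (adjusted p = 0.0697, 0.0882, 0.116, 0.185 and 0.136), with replicates that overlapped. It was called between lines in DBP without the 1.3-fold criterion, with the index as a covariate and when all groups were fitted together, the last of which also called it in BP and DBN. PARP6 had 2 probes 16583 bases apart. The 5′ probe was 1.27 higher in depleted BP than in H1299 BP (SE 0.39, adjusted p = 0.0628, not called because the unadjusted p missed its limit, but called with the replicate block or without replicate 1), and 0.57 and 0.96 lower in H1299 DBP and BP than in the H1299 controls (adjusted p = 0.714 and 0.763). One of its spots, of depleted DBN replicate 3, was an outlier on the array and was left out, so that group had 4 values. The PARP6 3′ probe in the controls was 0.24 higher in the depleted line with no overlap (SE 0.09, adjusted p = 0.0912), as were 11.6% of the features that passed both criteria. PARP8 was 0.27 higher in depleted DBP than in its controls, at 1.304, 1.45, 1.52, 1.42 and 1.43 against 1.14, 1.07, 1.13, 1.26 and 1.16. Its ranges did not overlap, as for 0.838% of the features that passed both criteria. It was higher in 5 of 5 pairs, as for 7.98% of them (SE 0.08, adjusted p = 0.184, not called). PARP8 itself passed only the first criterion and is not among those features. Its level is a mean over 10 spots, against 1 spot for every other member probe.

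**Figure D5:**
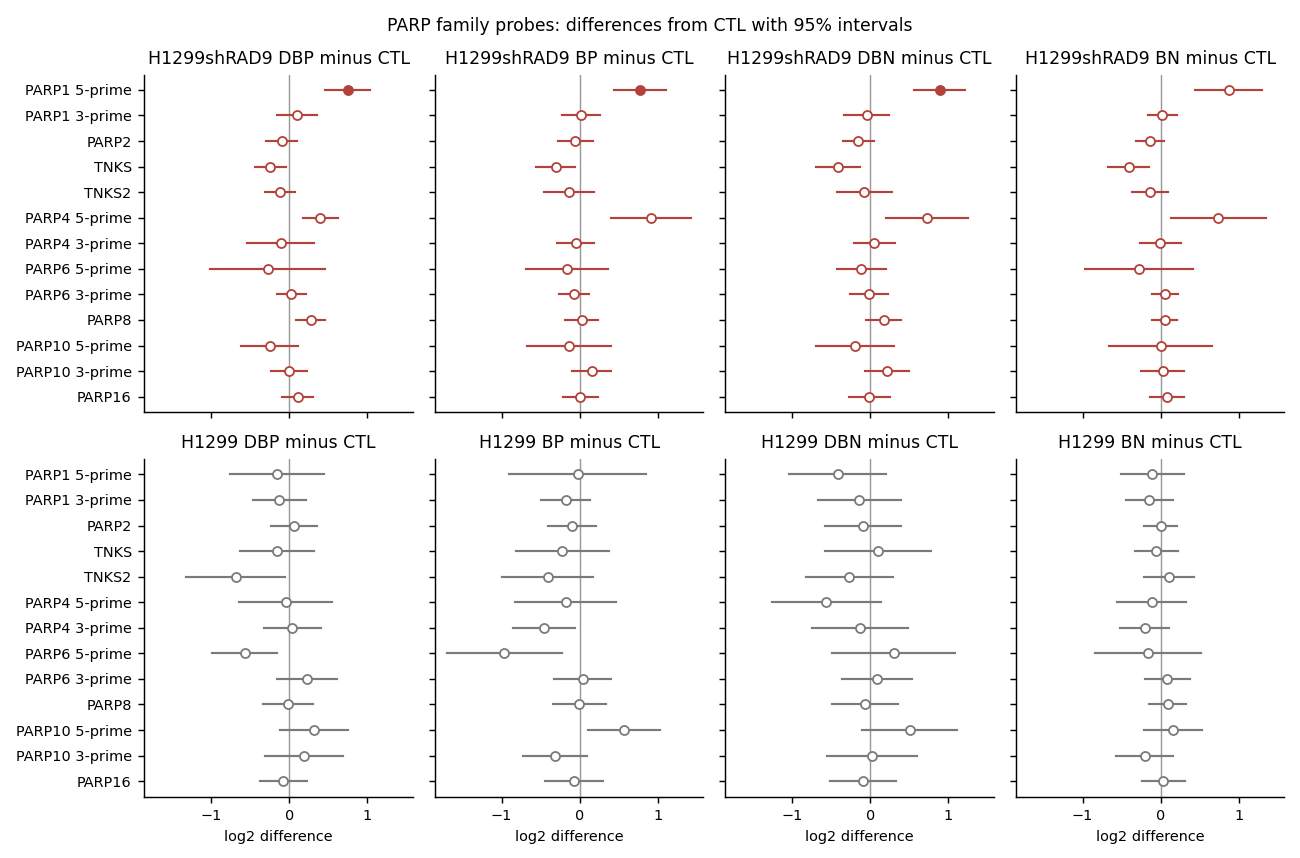
Log2 difference of each of the 13 tested member probes (y axis) from the controls of its own line (x axis), with H1299shRAD9 in the upper and H1299 in the lower panels, lines for 95% intervals and filled symbols for calls. The filled symbols are the PARP1 5′ probe in H1299shRAD9 DBP (0.75), BP (0.78) and DBN (0.89), and its BN difference of 0.87 is unfilled.

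Counted as a family, few member probes were called. Against the H1299 controls limma and the random-variance test called no member, whether in hit cells or in bystanders. An unadjusted p under 0.05 was reached by 2 of 13 member probes in DBP (6.28% of all features), 3 in BP (5.96%), 0 in DBN (3.32%) and 0 in BN (2.77%). Of all features 0.0575%, 0%, 0.0164% and 0% were called there. The median difference over the 13 tested member probes in H1299shRAD9 lay between -0.05 and 0.02 in the 4 comparisons with the controls. That of all features that passed the first criterion, as these probes did, lay between -0.02 and 0.01. Between lines the median was 0.11 over the member probes in CTL against 0.12 over the features that passed the first criterion. In DBP, BP, DBN and BN it was 0.21, 0.22, 0.14 and 0.27 against 0.13, 0.15, 0.16 and 0.16. Within H1299shRAD9, hit and bystander cells of the same dishes, and positive and negative dishes, were also compared. No member was called in DBP against BP, DBN against BN, BP against BN or DBP against DBN by limma, where 0.14%, 0.14%, 0% and 0% of all features were. An unadjusted p under 0.05 was reached by 2, 0, 0 and 0 of 13 member probes and by 5.34%, 2.65%, 0.353% and 0.493% of all features. PARP1 5′ differed by -0.03, 0.02, -0.09 and -0.14 in these, with intervals from -0.64 to 0.46. BP against BN and DBP against DBN had no replicate block, although same-numbered arrays deviated together there (mean correlation 0.35 and 0.40). These tests were thereby less sensitive, and the absence of calls in them does not show equal levels. PARP8 was 0.25 higher in DBP than in BP, in 5 of 5 pairs, as 2.6% of the features that passed both criteria were. The ranges did not overlap, as for 0.0164% of them (adjusted p = 0.886). PARP8 is not among those features, and its level is a mean over 10 spots.

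Other genes of ADP-ribose chemistry were taken from 4 lists, with 1 feature per gene. Of 7 further PARP genes 3 passed both criteria. Of these, PARP14, an interferon-responsive mono-ADP-ribosyltransferase, rose with PARP1 in H1299shRAD9 DBP by 0.45 (SE 0.09, adjusted p = 0.0804) and in DBN by 0.63 (SE 0.13, adjusted p = 0.0662), higher in 5 of 5 pairs, where 2.17% and 4.5% of all features were called. In BP it differed by 0.48 (adjusted p = 0.101) and was not called. Leaving out single replicates, as given for PARP1 above, left no feature called in some fits of DBP and DBN. The PARP14 calls were thus lost in those fits too. PARP9, its interferon-responsive partner, was lower in H1299shRAD9 than in H1299, by 0.74 in CTL (adjusted p = 0.0229) and by 0.99 in DBN (adjusted p = 0.0708), against 16.5% and 5.78% of all features called. Of 7 genes that remove ADP-ribose 4 were tested, and PARG, the main hydrolase of ADP-ribose chains, was 0.97 higher in depleted than in H1299 DBP (SE 0.21, adjusted p = 0.0212) and was the only call, 1 of 4 against 7.2% of all features.

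Of 10 genes that bind or act beside poly(ADP-ribose) in repair, among them XRCC1, LIG3 and POLB, none varied enough to pass both criteria, and none was called in the fit without the 1.3-fold criterion. Of 9 genes that supply NAD+, the substrate of the whole family, 4 were tested. C9orf95, the nicotinamide riboside kinase NMRK1, was lower in the depleted line by 0.90 in CTL, 0.95 in DBP, 0.85 in BP and 0.88 in BN (adjusted p = 0.0124, 0.0649, 0.0368 and 0.0207), where 16.5%, 7.2%, 8.67% and 9.31% of all features were called. NAPRT1, which makes NAD+ from nicotinic acid, was lower by 0.56 in CTL (adjusted p = 0.015) and by 0.76 in BP (adjusted p = 0.0282), so 2 of the 4 genes tested were called in CTL and in BP. No gene of the NAD+ list was called against the controls of its own line.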

How the data were processed

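Each sample was hybridised to a 1-colour Agilent array and scanned. The deposited processed intensity of each spot is the authors' scanner value after background correction and spatial detrending by Feature Extraction, and the authors also deposited log2 values of their own, median-normalized and filtered, which were used as an alternative. From the intensities, log2 values were taken, centred on the median of the non-control probes of each array, outlier spots were dropped (655 values in the fit were missing) and spots of a probe averaged. The scaling assumes that the median probe is equal in all arrays.

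Tests were fitted with limma 3.58.1 in R 4.3.3 with data.table, version 1.17.8, over all features, with Benjamini-Hochberg adjustment. The replicate number was a block against controls of the same line and between hit and bystander cells of the same dishes, as in the paired tests of the study's methods, and interactions were blocked by line and replicate. Comparisons between lines and between positive and negative dishes had no block. The samples are called biological replicates in the design text, and p-values measure the spread between them. Same-numbered samples of H1299shRAD9 deviated together in each comparison with the controls (lowest correlation 0.21). In the unblocked BP against BN and DBP against DBN the lowest was 0.01 and 0.26 and the mean 0.35 and 0.40. In H1299 the lowest was 0.26 in DBP and 0.15 in BN but -0.21 in BP and -0.10 in DBN.

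The members and lists were chosen with earlier results of these data known. The rule named every probe of the 10 members, RAD9A, for each list up to 3 called genes of largest difference in a comparison, and the 5 genes most like PARP1. In simulated data for the H1299shRAD9 DBP comparison the fit recovered 32% of 2-fold and 98% of 4-fold changes over 12172 features. For the CTL comparison between lines it recovered 64% and 96%, and for the DBN interaction 14% and 82%. The simulated arrays were independent, whereas same-numbered arrays deviated together in the real DBP comparison (mean correlation 0.53). The shares for the blocked fits therefore do not describe the paired tests. Figures were drawn with Python 3.11.15 and matplotlib 3.10.9. The alternatives were 2 other scalings, normexp background correction, the authors' log2 values, filters, a random-variance test, the slide of the array, the replicate block, all groups in one fit, the 5′ to 3′ index and leaving out each replicate. The tests of 5′ minus 3′ values were added after the data were seen.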

Additional observations from a re-analysis of the deposited data

Results flagged for a closer look

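In 11 of 130 group and probe combinations 1 replicate lay farther from the other replicates than Dixon's 95% value allows. Chance gives about 1 in 20. No PARP1 probe and no PARP2, PARP8 or TNKS2 probe was among them.

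TNKS read 1.71 in H1299 BN replicate 1 (others 0.91 to 1.07), 2.49 in H1299 DBN replicate 2 (others 0.78 to 1.24) and 0.44 in H1299shRAD9 BN replicate 3 (others 0.84 to 0.98). The PARP6 5′ probe read 2.60 in H1299 CTL replicate 1 (others 1.105 to 1.41), 2.22 in H1299 BN replicate 4 (others 0.938 to 1.295) and 2.61 in H1299shRAD9 DBN replicate 2 (the other 3 at 1.41 to 1.59). The PARP6 3′ probe read 4.24 in H1299 BP replicate 2 (others 3.22 to 3.50). The PARP10 5′ probe read -1.62 in H1299 BP replicate 3 (others -0.47 to -0.24) and -1.15 in H1299shRAD9 DBP replicate 2 (others -0.57 to -0.35). PARP16 read 2.27 in H1299 CTL replicate 2 (others 1.82 to 1.95), and the PARP4 3′ probe 2.92 in H1299shRAD9 BN replicate 3 (others 3.37 to 3.54).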

How the results depend on the processing

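Of the differences of single probes under other settings, 146 kept their direction and their side of the threshold, 37 lost a call, 1 gained one and 9 changed sign; of the counts of called members 291 held and 53 moved. Against the H1299shRAD9 controls the count of called member probes fell from 1 to 0 in DBP, BP and DBN with no replicate block. It did so too with the 5′ to 3′ index as a covariate, and in DBP with the slide as a fixed block. Calls over all features fell from 264, 230 and 548 to 17, 0 and 66 with no replicate block. With the index they fell to 0, 0 and 1, and in DBP with the fixed slide block to 0. The count of called member probes rose to 2 in DBN and from 0 to 2 in BN with all groups in one fit (PARP1 5′ 0.87 in BN, adjusted p = 0.0289, with 519 features called against 6).

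Between lines it rose from 1 to 2 in CTL with normexp, and with all groups in one fit (both PARP10 probes). It did so too with the filter on dim probes, through PARP3, which passed that filter only in the H1299 controls. In DBP it rose from 1 to 2 with no 1.3-fold criterion, with all groups in one fit and with the index. In BP it fell to 0 under 75th percentile scaling, quantile normalization and in the authors' values. In DBN it fell to 0 under these 3 and the dim filter, and rose to 2 with all groups in one fit, where PARP1 5′ was lost (adjusted p = 0.0427, with the unadjusted p over its limit) and PARP10 3′ and PARP16 gained. In BN it rose from 0 to 1 (PARP10 3′) under the same 3 scalings, with no 1.3-fold criterion, with the replicate block and with the index. Under the replicate block the count in BP stayed at 1, with PARP6 5′ called in place of PARP4 3′, and the block changed no other call between lines.

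Leaving out 1 replicate gave counts of 1 to 2 in CTL between lines, 0 to 1 in H1299shRAD9 DBP, 0 to 1 in BP, 0 to 2 in DBN and 0 to 0 in BN against the controls, and 1 to 2, 0 to 1, 0 to 1 and 0 to 1 between lines in DBP, BP, DBN and BN; all other counts stayed at 0. The PARP1 5′ difference in H1299 changed sign to 0.15 in DBP with the index and to 0.18 in BN with the slide as a fixed block. In BP it changed to 0.061 and 0.040 under 75th percentile scaling and quantile normalization. Leaving out a replicate gave -0.39 to 0.15 in DBP, -0.45 to 0.36 in BP and -0.24 to 0.015 in BN. The cause of these changes was not tested. The slide could not be fitted as a fixed block for any comparison between lines or for BP and DBN against controls. As a random block it could not be fitted for DBP, BP, DBN and BN between lines, so the part of the slide was not tested there. For CTL between lines and for BP and DBN against controls only the random block was fitted. In CTL the lines shared no slide, so that block could not separate slide from line. Probes near background, PARP3 above all, limit what can be measured.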
